A study of Mus musculus with 20 samples.

Results

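Livers of 5 XY-Sry and 5 XY- mice, 10 of the 20 arrays of the series, were compared to ask which liver transcripts differ between gonadal males and gonadal females that carry the same sex chromosomes. The arrays were chosen by the genotype in their titles. All animals were C57BL/6J mice of the FCG (core genotypes) cross. Its Y chromosome, written Y-, is without Sry, the gene that starts testis development, and Sry sits instead as a transgene on an autosome. XY-Sry mice have the Y- chromosome and the transgene and are gonadal males. XY- mice have the Y- chromosome without the transgene and are gonadal females. Both groups were fed chow of 4% fat and gonadectomized at 8 weeks of age, and the livers were taken at 12 weeks, when the mice had gone without food for 12 hours. The comparison therefore covers 4 weeks without gonads, and the transgene and the earlier life with testes or ovaries cannot be told apart. Each array set the liver RNA of 1 animal against a common pool of liver RNA. Values are given as log2 ratios of liver to pool, and arrays are named by group and animal number.

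Liver is among the tissues with strong sex differences in expression. In mice they are set largely by the pattern of growth hormone release, which is pulsatile in males and nearly continuous in females, and which reaches hepatocyte genes through the transcription factor STAT5B. Sulfotransferases of the SULT2A and SULT3A families, which attach sulfate to steroids, bile acids and amines, belong to the female-biased genes, and several cytochrome P450 enzymes such as Cyp2d9 to the male-biased ones. Removal of the gonads takes away androgens and estrogens, which shape the hormone pattern.

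The arrays gave values for nearly all of 23574 probes, averaged to 21556 features: 11647 named genes and 9909 single unnamed probes. The SD of an array's log2 ratios ran from 0.175 to 0.341 and was largest on XY- 12 (0.341) and XY- 3 (0.335). XY- 12 correlated below -0.3 with 3 XY-Sry arrays (-0.359 with XY-Sry 27, -0.305 with XY-Sry 19 and -0.301 with XY-Sry 20). It was also negative with XY-Sry 5 (-0.27) and, within its own group, with XY- 30 (-0.26), XY- 22 (-0.21) and XY- 24 (-0.14). With XY-Sry 14 and XY- 3 it was positive (0.14 and 0.12). The direction of all arrays was kept, since the labels give Cy5 to the liver and Cy3 to the pool on each of them.

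The sex-linked genes were examined first because both groups should carry the Y chromosome. Eif2s3y, the Y-linked gene of a subunit of translation factor eIF2, stood at 0.77, 0.79, 0.98, 0.73 and 1.34 in XY-Sry livers 5, 14, 19, 20 and 27. It stood at 0.59, 0.62, 0.57 and 0.63 in XY- livers 3, 12, 22 and 24, and at -3.90 on the array labelled XY- 30. Kdm5d, a Y-linked histone demethylase, lay between 0.56 and 1.37 in XY-Sry livers, between 0.14 and 0.90 in the same 4 XY- livers, and at -3.16 on the array labelled XY- 30. That array also had the lowest Ssty1 (-0.86) and Gm20747 (-1.22) of the 10 and the highest Eif2s3x (0.51), the X-linked partner of Eif2s3y. Y-linked Usp9y, Zfy2 and Uba1y lay between -0.16 and 0.24 on all arrays, and at -0.12, -0.06 and -0.01 on this one. X-linked Kdm6a (0.06) and Ddx3x (0.19) were its group's highest but within the XY-Sry range. The array labelled XY- 30 thus goes against its label in Eif2s3y, Kdm5d, Ssty1, Gm20747 and Eif2s3x. Values without it are given beside the main results. No probe carried the name Sry, Xist, Ddx3y or Uty in the annotation used.

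**Figure D1:**
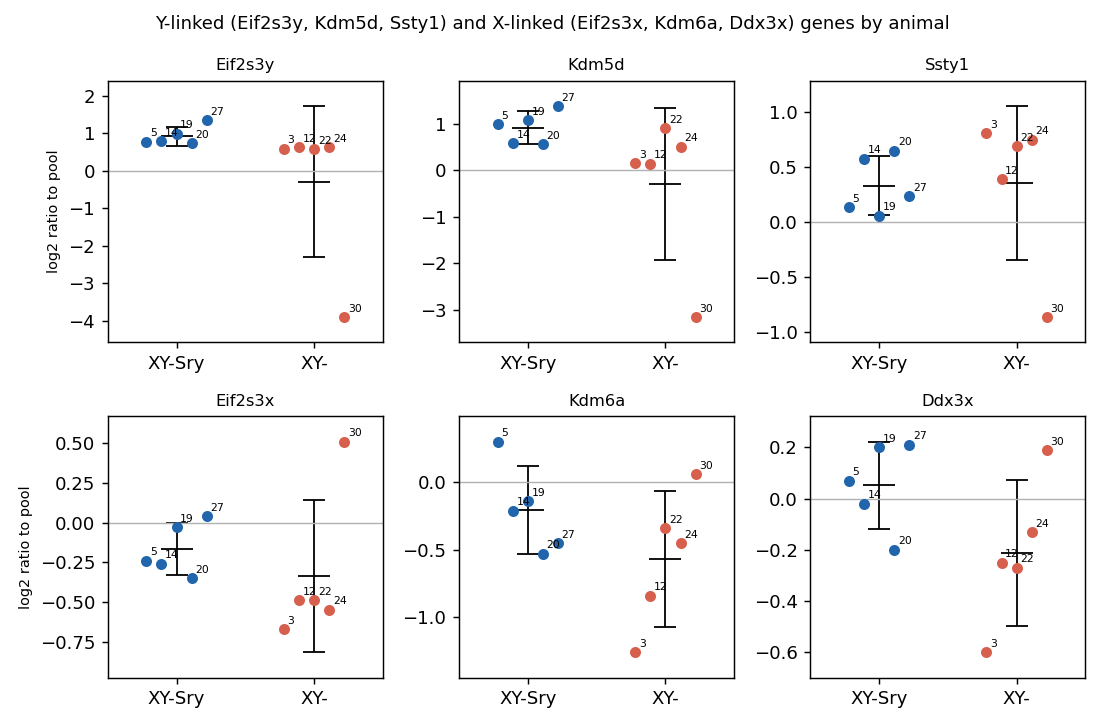
Log2 ratio to the pool (vertical axis) of 3 Y-linked and 3 X-linked genes in the 5 XY-Sry and 5 XY- livers, with each point labelled by its animal number and bars for the mean and SD. The array labelled XY- 30 stands below all others in Eif2s3y (-3.90), Kdm5d (-3.16) and Ssty1 (-0.86).

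Livers of XY-Sry mice had far lower hydroxysteroid sulfotransferase transcripts than livers of XY- mice, and few other features passed the adjusted threshold with these 10 arrays. Of 21556 features, 4 passed an adjusted p of 0.05 in limma (0.0186%), all lower in XY-Sry, and none was higher. They were Sult2a1, C730007P19Rik, Sult3a1 and an unnamed probe. At an unadjusted p under 0.05 there were 1683 features (7.81%), 904 higher (4.19%) and 779 lower (3.61%) in XY-Sry. Without the array labelled XY- 30 the count was again 4 (0.0186%), all lower, and 3 of the features were the same; at an unadjusted p under 0.05 there were 2123 (9.85%).

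Because the promoters of sex-biased liver genes are often read for STAT5 motifs, the 250 bases before the RefSeq start (GRCm38.p6) are shown for the called gene whose promoter was at hand and for the leading named genes on the higher side. Capitals mark TTCNNNGAA, the palindromic core bound by STAT factors, which reads the same on both strands.
Sult3a1, chr10:33857472-33857721, plus strand: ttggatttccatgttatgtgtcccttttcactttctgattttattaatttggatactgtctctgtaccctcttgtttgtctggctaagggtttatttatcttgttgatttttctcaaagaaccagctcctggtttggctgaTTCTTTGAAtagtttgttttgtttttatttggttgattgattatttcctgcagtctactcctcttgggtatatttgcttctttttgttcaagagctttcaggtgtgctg
Cyp2d9, chr15:82452127-82452376, plus strand: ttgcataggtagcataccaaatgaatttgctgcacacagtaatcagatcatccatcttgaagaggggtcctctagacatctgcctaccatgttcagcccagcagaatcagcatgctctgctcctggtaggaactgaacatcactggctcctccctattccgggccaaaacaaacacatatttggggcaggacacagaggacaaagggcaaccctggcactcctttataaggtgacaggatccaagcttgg
Nox4, chr7:87246399-87246648, plus strand: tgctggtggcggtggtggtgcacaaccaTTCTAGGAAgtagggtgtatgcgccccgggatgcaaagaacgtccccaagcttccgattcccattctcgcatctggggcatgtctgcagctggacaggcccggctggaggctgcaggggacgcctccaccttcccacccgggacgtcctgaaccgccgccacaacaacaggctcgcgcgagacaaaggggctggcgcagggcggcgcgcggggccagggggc
Sult3a1 held the motif once, beginning 109 bases before the start, and Nox4 once, beginning 222 bases before it. Of 32851 promoter windows of this length in the table, 7.02% held it. Among the 20 genes listed by smallest p, 11 had a promoter in the table and 2 of these held the motif. Half-sites AGAACA (steroid receptors, 16.1% of all windows on either strand) and AGGTCA (nuclear receptors, 14.0%) were in none of the 3 sequences.

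Sult2a1, which encodes a hydroxysteroid sulfotransferase acting on steroids such as dehydroepiandrosterone and on bile acids, had log2 ratios of -2.97, -1.90, -2.78, -3.03 and -3.12 in XY-Sry livers 5, 14, 19, 20 and 27. In XY- livers 3, 12, 22, 24 and 30 it stood at 1.15, 0.49, 0.93, 1.17 and 1.05. Every XY-Sry liver was below the pool and every XY- liver above it. The gene fell by 3.72 on the log2 scale, 13.2-fold, in XY-Sry livers (SE 0.226, limma adjusted p = 0.000121, n = 5 and 5). Both of its probes passed when each probe was tested alone, with log2 differences of -3.31 and -4.12. Without the array labelled XY- 30 it was 12.9-fold lower (limma adjusted p = 0.000496).

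C730007P19Rik belongs to the same enzyme family, since RefSeq's table of genes gives it as a former symbol for Sult2a2. Its log2 ratios were -3.82, -2.14, -3.23, -3.25 and -3.64 in XY-Sry livers 5, 14, 19, 20 and 27. They were 1.61, 0.68, 0.88, 1.24 and 0.62 in XY- livers 3, 12, 22, 24 and 30. As for Sult2a1, the groups lay on opposite sides of the pool, and XY-Sry 14 was the highest of its group. The difference was -4.22 (SE 0.301, 18.7-fold lower in XY-Sry, limma adjusted p = 0.000317), and its 4 probes gave differences from -5.29 to -3.48. Without the array labelled XY- 30 it was 19.9-fold lower (limma adjusted p = 0.00082). Members of the Sult2a family are close in sequence, and whether these probes tell them apart was not tested. Both genes passed with each of the 10 arrays left out in turn.

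Sult3a1, an amine sulfotransferase, was the third named gene that fell. Its values in XY-Sry livers 5, 14, 19, 20 and 27 were close together, at -1.46, -1.40, -1.53, -1.56 and -1.51. In XY- livers 3, 12, 22, 24 and 30 they were 0.42, 0.62, 0.10, 0.56 and 1.79. The groups did not overlap, and the array labelled XY- 30 was the highest. Sult3a1 was 4.57-fold lower in XY-Sry livers (log2 difference -2.19, SE 0.254, limma adjusted p = 0.0262). Without XY- 30 it was 3.78-fold lower with a smaller error (SE 0.104, limma adjusted p = 0.00012). It passed without XY- 12, XY- 22 or XY- 30 and missed without any other single array, with limma adjusted p up to 0.133. Of its 2 probes tested alone, one passed (difference -2.65) and the other did not (-1.73, limma adjusted p = 0.155).

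The unnamed probe 10024414891 lay between -0.69 and -0.23 in XY-Sry livers and between 0.27 and 0.71 in XY- livers. Its difference was -0.83 (limma adjusted p = 0.0486), which became 0.172 without XY- 30. In its place probe 10024410562 passed without that array (difference -0.95, limma adjusted p = 0.00812).

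**Figure D2:**
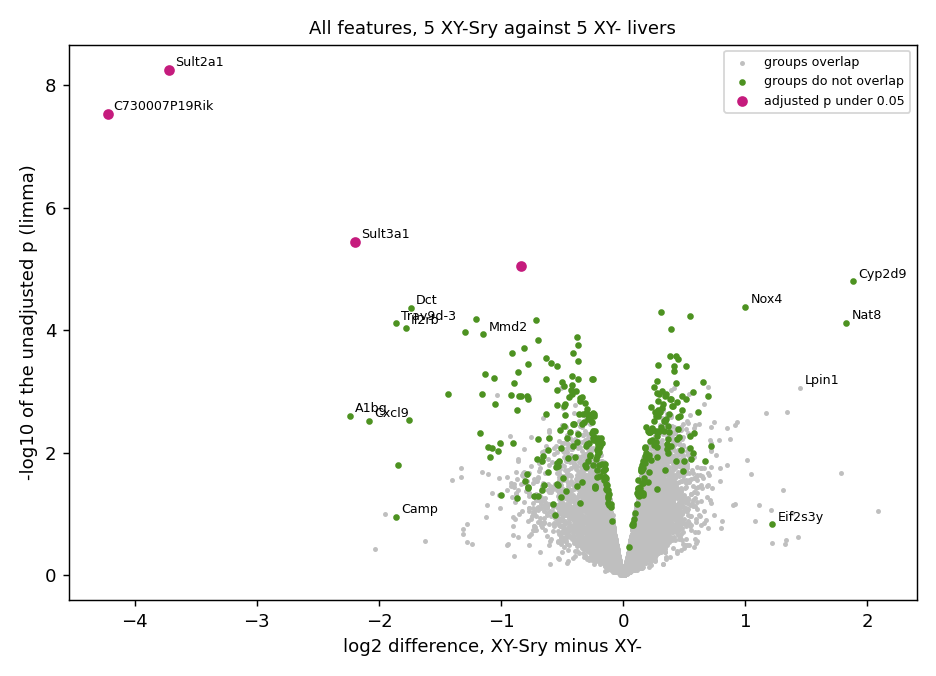
Log2 difference of XY-Sry minus XY- livers (horizontal axis) against -log10 of the unadjusted limma p (vertical axis) for all 21556 features. The 4 features past the adjusted threshold lie on the left, and Cyp2d9, Nox4 and Nat8 lead the right side.

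Of the other sulfotransferases and sulfate donor enzymes on the list, none passed the test. Of its 20 genes 13 were measured, and Sult2a1 and Sult3a1 were the 2 called (0.0186% of all features). C730007P19Rik, which was called as well, is not among the 13. Sult5a1 stood between -0.76 and -0.03 in XY-Sry livers and between 0.03 and 0.84 in XY- livers, without overlap (difference -0.79, limma adjusted p = 0.337). Sult1e1, the estrogen sulfotransferase, differed by 0.44 (limma adjusted p = 0.847). Sult1d1 differed by 0.41 (limma adjusted p = 0.691). The sulfate donor synthases Papss1 and Papss2 differed by -0.14 and -0.22. The median difference of the list was -0.07, against -0.003 over all features.

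Among female-biased liver genes, 29 of 42 were measured, a list that does not hold C730007P19Rik. Again Sult2a1 and Sult3a1 were the 2 called, both lower in XY-Sry (0.0186% of all features). With A1bg, 3 had every XY-Sry liver below (0.868% of all features), and at an unadjusted p under 0.05 there were 4 higher (4.19%) and 5 lower (3.61%). Their median difference was -0.02, with 18 members below 0 and 11 above. A1bg, a secreted plasma glycoprotein, was at -3.04, -0.46, -2.40, -2.28 and -0.48 in XY-Sry livers 5, 14, 19, 20 and 27. In XY- livers 3, 12, 22, 24 and 30 it was at -0.16, -0.15, 0.65, 0.24 and 1.97. The groups did not overlap, but the XY-Sry values were widely spread (difference -2.24, SE 0.572, limma adjusted p = 0.413). Cyp2b9, Cyp2b13 and Cyp3a41a, female-predominant P450 enzymes, differed by -0.10, -0.43 and -0.01. On the other side, opposite to Sult2a1, Cyp39a1, an oxysterol hydroxylase, had the largest difference, 1.02 (limma adjusted p = 0.549). Fmo2, a flavin monooxygenase, and Cux2, a transcription factor of female liver, differed by 0.85 and 0.71 (limma adjusted p = 0.459 and 0.486). Acot3 differed by 0.50 (limma adjusted p = 0.638).

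Of 38 male-biased liver genes 22 were measured and none was called. Their median difference was -0.01, with 11 members above 0 and 11 below. The 2 members without overlap, Cyp2d9 and Nat8, had XY-Sry above (0.612% of all features). At an unadjusted p under 0.05 in limma there were 3 higher and 1 lower (4.19% and 3.61% of all features). Cyp2d9, a male-predominant P450 that hydroxylates testosterone, stood at 1.19, 0.46, 0.24, 0.22 and 0.24 in XY-Sry livers 5, 14, 19, 20 and 27. It was at -2.0, -0.71, -1.32, -1.26 and -1.77 in XY- livers 3, 12, 22, 24 and 30. All XY-Sry livers lay above the pool and all XY- livers below it. Its difference of 1.88 (SE 0.255, 3.68-fold) had a limma adjusted p of 0.0688, or 0.176 without XY- 30. Cyp2d9 passed in 1 of the 10 fits with 1 array left out, that without XY- 12 (difference 2.06, limma adjusted p = 0.0151). The others gave limma adjusted p up to 0.209. Nat8, an N-acetyltransferase, was at 0.36, 0.83, 0.68, -0.42 and 0.22 in XY-Sry livers 5, 14, 19, 20 and 27. In XY- livers 3, 12, 22, 24 and 30 it was at -1.67, -0.54, -1.42, -2.04 and -1.79. XY-Sry 20 and XY- 12 came close, but the groups did not overlap (difference 1.82, SE 0.295, limma adjusted p = 0.128). Nat8 also passed in 1 of these 10 fits, again without XY- 12 (difference 2.06, limma adjusted p = 0.0165). The others gave limma adjusted p up to 0.48. For both genes XY- 12 was the XY- liver nearest the XY-Sry livers, so leaving it out could only widen the difference.

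Other male-biased genes with strong androgen or growth hormone dependence were near 0: Cyp4a12a differed by 0.10, Hsd3b5 by 0.01, Slco1a1 by -0.03 and Moxd1 by 0.01. Elovl3, a fatty acid elongase, was high in XY-Sry 5 alone (2.42) and between -0.77 and 0.44 in the other XY-Sry livers. Cyp7b1, an oxysterol hydroxylase, differed by 0.72 and Hsd3b2, a steroid dehydrogenase, by -0.93, and both overlapped between groups. Of 20 measured genes of the growth hormone and STAT5 axis none was called in limma, and no member's groups separated. An unadjusted p under 0.05 was reached by 2 of them (7.81% of all features). Their median difference was -0.05. Steroid receptors and steroid enzymes (21 measured) had a median of 0.02 with none called. At an unadjusted p under 0.05 there were 3 of them, 1 higher and 2 lower (4.19% and 3.61% of all features).

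The named gene with the second smallest p on the higher side was Nox4, an NADPH oxidase that makes hydrogen peroxide. It was at 0.78, 0.52, 0.39, -0.13 and 0.56 in XY-Sry livers 5, 14, 19, 20 and 27, and at -0.59, -0.79, -0.60, -0.55 and -0.36 in XY- livers 3, 12, 22, 24 and 30. XY-Sry 20 was the lowest of its group and still above every XY- liver. The difference was 1.0 (SE 0.151, limma adjusted p = 0.128). Nox4 passed in 1 of the 10 fits with 1 array left out, that without XY-Sry 20 (1.14, limma adjusted p = 0.006). The others gave limma adjusted p up to 0.401. Leaving out XY-Sry 20, the lowest of its group, could only widen the difference. The other 7 named genes with the smallest p on this side were Rnf227, TTC19, Sall2, SLMO2, Pknox1, Trp53bp2 and St3gal3. Their differences were small, from 0.281 to 0.453, and none passed.

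Dct, dopachrome tautomerase of the melanin pathway, was the next gene on the lower side. It was at -0.90, -0.95, -0.81, -1.10 and -1.92 in XY-Sry livers 5, 14, 19, 20 and 27 and at 1.29, 0.29, 0.21, 0.23 and 0.98 in XY- livers 3, 12, 22, 24 and 30. The sign of the ratio again separated the groups (difference -1.74, SE 0.263, limma adjusted p = 0.128). Mmd2 lay between -1.26 and -0.12 in XY-Sry livers and between 0.17 and 0.77 in XY- livers (difference -1.15, limma adjusted p = 0.148). Rgs4, a regulator of G protein signalling, and Miox, which oxidises myo-inositol, had differences of -0.38 and -0.70 without overlap and did not pass.

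**Figure D3:**
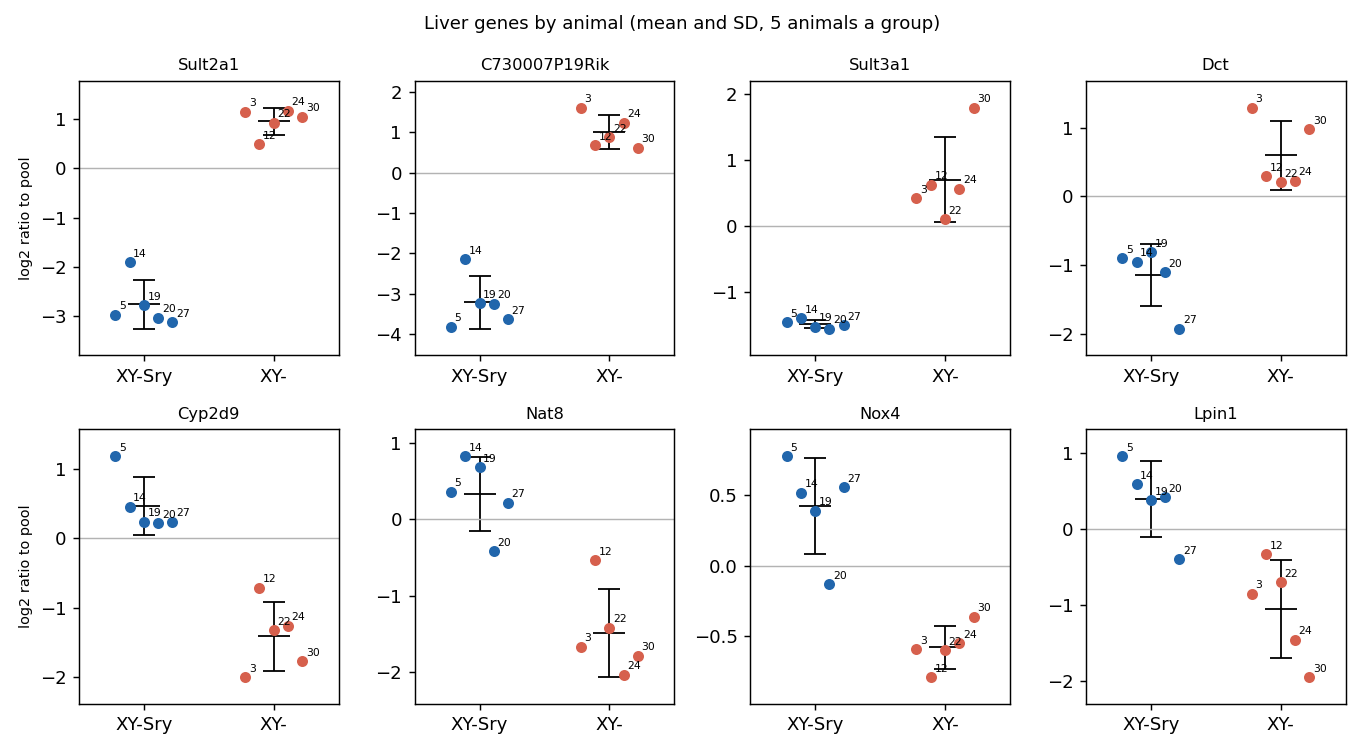
Log2 ratio to the pool (vertical axis) of 8 genes in each liver, labelled by animal number, with bars for the mean and SD of 5 animals a group. Sult2a1, C730007P19Rik, Sult3a1 and Dct separate the groups with XY-Sry below, and Cyp2d9, Nat8 and Nox4 with XY-Sry above; Lpin1 overlaps between XY-Sry 27 (-0.40) and XY- 12 (-0.33).

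Non-overlapping groups were a second, looser description. Of all features 319 (1.48%) had no overlap between the 5 XY-Sry and the 5 XY- values, 132 with XY-Sry above (0.612%) and 187 with XY-Sry below (0.868%). Only 30 of these differed by at least 2-fold, 4 above and 26 below. The 4 above were Cyp2d9, Nat8, Nox4 and Eif2s3y; the difference of Eif2s3y, 1.22, was 0.32 without the array labelled XY- 30. Of the 26 below, 21 were named genes. Without the array labelled XY- 30, 304 features had XY-Sry above (1.41%) and 293 below (1.36%). Without XY- 12 there were 236 above (1.09%) and 492 below (2.28%), and without both 541 (2.51%) and 838 (3.89%). These counts can only grow as arrays are left out.

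Of the 21 named genes that were at least 2-fold lower without overlap, 7 were on the list of T and natural killer (NK) lymphocyte markers. For some the size rested on XY- 12: without it Cd3g and Cxcr6 differed by -0.89 and -0.77, under 2-fold. Il2rb and Trav9d-3 stayed past 2-fold, at -1.46 and -1.54. Ccl5 was at 2.27 on XY- 12 and between -0.41 and -0.08 in the other XY- livers. Ly6c2 was at 1.53 against -0.34 to 0.58, and Cd2 at 1.87 against 0.05 to 0.33. Of 30 listed T and NK lymphocyte markers 25 were measured, and in 13 of the 25 every XY-Sry liver was below every XY- liver, against 0.868% of all features. None passed the adjusted threshold in the limma fit of 10 arrays or of 9 without XY- 30, and 17 reached an unadjusted p under 0.05, all lower (3.61% of all features). The median difference of the 25 was -0.42, with 21 below 0. The list was chosen with earlier results of these data known, so these counts are a description. In whole liver, fewer lymphocytes and less of these RNAs per lymphocyte cannot be told apart.

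Il2rb, the receptor chain for interleukins 2 and 15, was at -1.25, -0.67, -1.21, -1.12 and -1.30 in XY-Sry livers 5, 14, 19, 20 and 27. In XY- livers 3, 12, 22, 24 and 30 it was at 0.41, 1.94, 0.37, 0.25 and 0.40. XY- 12 stood far above the rest of its group (difference -1.78, SE 0.295, limma adjusted p = 0.14). Without XY- 12 the difference was smaller and passed (-1.46, limma adjusted p = 0.002). Trav9d-3, a variable segment of the T cell receptor alpha chain, was at -1.11, -1.05, -1.34, -1.30 and -1.42 in the XY-Sry livers and at 0.61, 1.93, 0.21, 0.26 and 0.08 in the XY- livers, in the same order of animals. Its difference was -1.86 (limma adjusted p = 0.128) and -1.54 without XY- 12 (limma adjusted p = 0.00117). With any other single array left out neither Il2rb nor Trav9d-3 passed (limma adjusted p up to 0.492 and 0.48). Il2rb and Trav9d-3 were both above the pool in every XY- liver and below it in every XY-Sry liver.

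Members of the T cell receptor complex differed by less, and not alike. Cd3g lay between -0.99 and -0.55 in XY-Sry livers and between -0.08 and 1.40 in XY- livers (difference -1.13, limma adjusted p = 0.308), and Cd3d between -0.27 and -0.14 against 0.08 and 0.68. Zap70, the kinase that the receptor recruits, lay between -0.31 and -0.20 against -0.06 and 0.47, and here XY- 12 was the lowest XY- liver (-0.06). Cd2, an adhesion receptor of T and NK cells, differed by -1.44 (limma adjusted p = 0.337). The chemokine receptors Cxcr6 and Cxcr3 differed by -1.05 and -0.90, Ccl5 by -1.0 and Ifng, the gene of interferon gamma, by -0.70, each without overlap. Cd3e of the receptor complex (-0.13) and Cd4 (-0.06) were near 0. The 4 members above 0 were Cd8b1 (0.05), Gzmb (0.06), Thy1 (0.10) and Gzma (0.30), the last a granule protease, and all 4 overlapped.

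The mean ratio of the 25 markers was -0.39, -0.24, -0.40, -0.37 and -0.31 in XY-Sry livers 5, 14, 19, 20 and 27 and 0.08, 0.85, 0.00, 0.01 and 0.13 in XY- livers 3, 12, 22, 24 and 30. XY- 12 stood apart, and the other 4 XY- livers were still above all XY-Sry livers. Without XY- 12 the median difference was -0.32, and 5 of the 25 passed in limma: Il2rb, Trav9d-3, Cd3g, Cxcr6 and Cxcr3. None of these 5 passed with any other single array left out. The count over all features without XY- 12 was 19 in place of 4 (0.0881%), 4 higher and 15 lower. Tbx21, the transcription factor T-bet of T and NK cells, and Tnfrsf18, a receptor of activated T cells, were among them (differences -0.88 and -0.80, limma adjusted p = 0.0361 and 0.0187) and were chosen here after their values were seen. Without both XY- 12 and XY- 30 the median was -0.29 and 3 passed (0.0371% of all features).

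**Figure D4:**
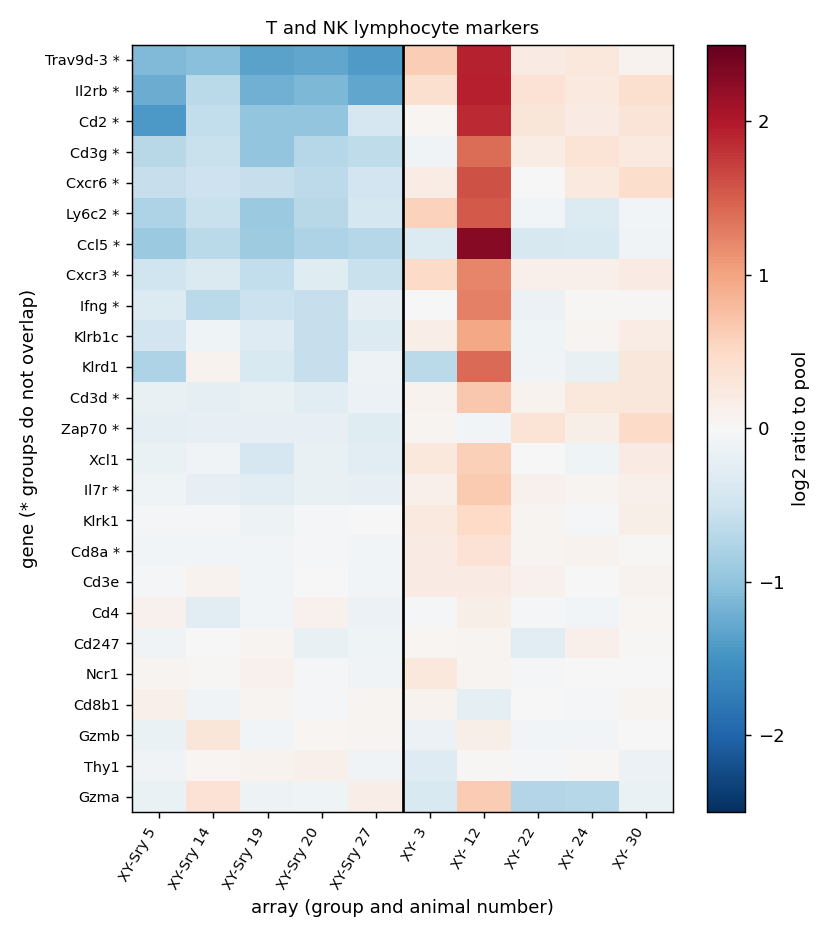
Colour shows the log2 ratio to the pool of the 25 measured T and NK lymphocyte markers (rows, ordered by difference) on the 10 arrays (columns), with asterisks for the 13 genes whose groups do not overlap. XY- 12 has the strongest colour in most rows, and the upper rows are below 0 in all 5 XY-Sry livers.

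Genes induced by interferon gamma and genes of antigen presentation mostly had differences below 0 as well. Of 39 listed, 31 were measured, 30 of them had a difference below 0, and the median was -0.35. None passed in limma, 11 reached an unadjusted p under 0.05, all lower (3.61% of all features), and 5 had every XY-Sry liver below (0.868% of all features): Cxcl9, Ubd, Gbp2b, H2-Aa and Psmb9. Cxcl9, a chemokine that attracts T cells, was at -1.60, -1.64, -1.74, -2.0 and -1.34 in XY-Sry livers 5, 14, 19, 20 and 27, and at -0.04, 2.88, -0.18, -0.52 and -0.07 in XY- livers 3, 12, 22, 24 and 30. The difference was -2.08 (limma adjusted p = 0.442), and -1.46 without XY- 12, where it passed (limma adjusted p = 0.00536). With any other single array left out Cxcl9 did not pass (limma adjusted p up to 0.953). Psmb9, a subunit of the immunoproteasome, differed by -0.92 and B2m, the light chain of class I molecules, by -0.40. Without XY- 12 the list's median was -0.22 and Cxcl9 was its 1 called member, and without both XY- 12 and XY- 30 the median was -0.16. The type I interferon response (24 measured) had a median of -0.06 and no member without overlap.

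Leaving out the array labelled XY- 30 moved these immune values little: the medians were -0.42 for the lymphocyte markers and -0.33 for the interferon gamma list, and Il2rb, Trav9d-3 and Cxcl9 had differences of -1.85, -2.0 and -2.20 (limma adjusted p = 0.271, 0.176 and 0.403). Among the liver genes, the differences without it were 1.75 for Nat8, 1.06 for Nox4, -1.64 for Dct and -1.88 for A1bg (limma adjusted p = 0.314, 0.176, 0.257 and 0.403). They were -1.19 for Mmd2, -0.39 for Rgs4, -0.66 for Miox and -0.79 for Sult5a1 (limma adjusted p = 0.285, 0.314, 0.398 and 0.403). Cd3g, Cd2, Lpin1 and Fkbp5 had differences of -1.18, -1.49, 1.22 and 1.07 without it (limma adjusted p = 0.403 for each).

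Markers of other immune cells showed how far XY- 12 differed from the other XY- livers. Neutrophil and monocyte markers had a mean of 1.74 on XY- 12, between -0.75 and -0.71 on the other XY- arrays and between -1.05 and -0.85 on the XY-Sry arrays. Of 13 measured, 12 were below 0 and 2, Camp and Cxcr2, had no overlap (0.868% of all features); the median difference was -0.44, or -0.12 without XY- 12 and -0.51 without XY- 30. Ngp and Camp, granule proteins of neutrophils, were at 3.63 and 3.74 on XY- 12 and between -3.54 and -2.21 on every other array. Kupffer cell and macrophage markers had a mean of 1.39 on XY- 12, between -0.19 and 0.00 on the other XY- arrays and between -0.58 and 0.33 on the XY-Sry arrays, so that these groups overlapped. Their median difference of -0.66 was -0.36 without XY- 12, -0.71 without XY- 30 and -0.19 without both. Of 22 measured members only C1qb had no overlap (0.868% of all features). In limma 9 of the 22 reached an unadjusted p under 0.05, all lower (3.61% of all features). B and plasma cell markers had a median of -0.10 and no member without overlap. Acute phase proteins of the liver had a mean of 0.89 on XY- 12 and 0.41 on XY-Sry 14, and between -0.47 and -0.07 elsewhere. The part of these cells in the lymphocyte result was not tested.

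Hepatocyte markers did not separate the groups, with means between -0.15 and 0.09 in XY-Sry and between -0.12 and 0.21 in XY- livers and a median difference of -0.03, or -0.01 without XY- 30. Of 14 listed markers 10 were measured, among them Ttr (difference -0.06), Apoa1 (-0.01), Hnf4a (0.02) and Ahsg (-0.06), and none was called. Medians of the pericentral and periportal hepatocyte, stellate cell, sinusoidal endothelial, cholangiocyte, pancreatic acinar and adipocyte marker lists lay between -0.09 and 0.04. Erythroid and blood markers had a median of -0.20 with none called.

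**Figure D5:**
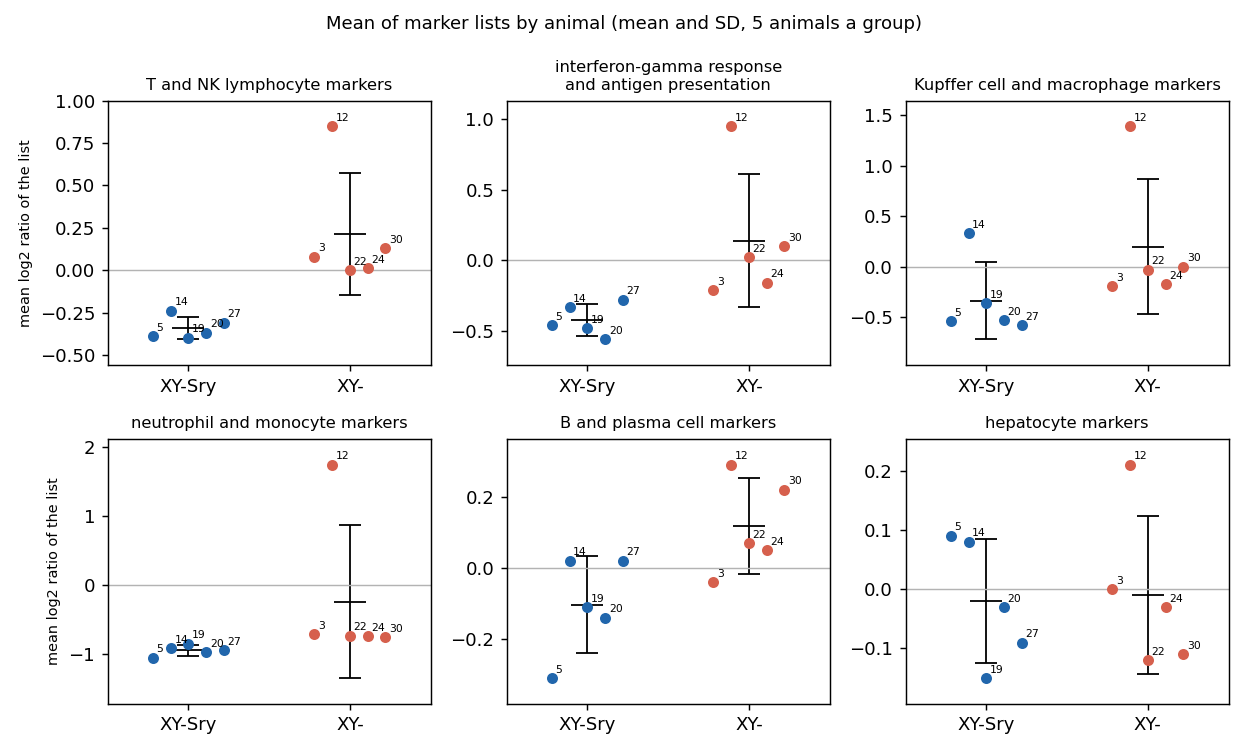
Mean log2 ratio to the pool (vertical axis) of 6 marker lists in each liver, labelled by animal number, with bars for the mean and SD of 5 animals a group. XY- 12 stands above the rest in the lymphocyte (0.85), interferon (0.95), macrophage (1.39) and neutrophil (1.74) lists. The means of the groups do not overlap in the lymphocyte, interferon and neutrophil lists.

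Of genes of fasting and fuel use none was called. Fatty acid oxidation and ketogenesis (23 measured, median 0.08), gluconeogenesis and fasting response (24, 0.05), urea cycle and amino acid catabolism (26, 0.01), cholesterol synthesis (16, 0.03) and bile acid synthesis and transport (24, 0.00) had no member without overlap. In limma these lists had 3, 1, 1, 1 and 3 members at an unadjusted p under 0.05 (7.81% of all features). Their members went both ways, and the differences furthest from 0 were 0.64 for Acot1, an acyl-CoA thioesterase, 0.60 for Igfbp1, which binds insulin-like growth factors, -0.58 for Uroc1 of histidine breakdown, -0.40 for Fdft1, squalene synthase, and 1.02 for Cyp39a1, an oxysterol hydroxylase. Cyp39a1 was at 0.75, 0.31, 0.54, -0.08 and 0.55 in XY-Sry livers 5, 14, 19, 20 and 27 and at -0.78, -1.84, -0.65, 0.26 and 0.01 in XY- livers 3, 12, 22, 24 and 30. XY- 24 and XY- 30 lay within the XY-Sry range (difference 1.02, SE 0.342, limma adjusted p = 0.549), and without XY- 30 the difference was 1.17, 2.25-fold (limma adjusted p = 0.403).

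Leaving out the array labelled XY- 30 moved some of these genes. Tdo2, tryptophan dioxygenase, differed by 0.47 with it and by 0.69 without it. Aass of lysine breakdown differed by 0.49 and 0.63, and Klb, the coreceptor of FGF21, by 0.42 and 0.51. Tdo2 was at 0.61 on the array labelled XY- 30, above every XY-Sry liver (-0.37 to 0.45), and between -0.60 and -0.44 in the other XY- livers. Without that array every XY-Sry liver was above in all 3 genes (1.41% of all features), and none passed (limma adjusted p = 0.403 for each). The medians without it were 0.11, 0.09, 0.04, -0.05 and 0.03 for the lists in the order above. CAR and PXR drug metabolism (24 measured) had a median of -0.05, or 0.03 without XY- 30, none called, and 6 members at an unadjusted p under 0.05, 2 higher and 4 lower (4.19% and 3.61% of all features).

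Triglyceride and fatty acid synthesis (27 measured) had a median of -0.07, with Mttp and Me1 the 2 members without overlap, both with XY-Sry above (0.612% of all features); without XY- 30 Fads2, a fatty acid desaturase, had XY-Sry below as well (difference -0.33, limma adjusted p = 0.403; 1.36% of all features). Mttp, which loads lipid onto apolipoprotein B, differed by 0.40 and Me1, malic enzyme, by 0.61 (limma adjusted p = 0.387 and 0.413). Lpin1, a phosphatidate phosphatase, was at 0.96, 0.59, 0.38, 0.42 and -0.40 in XY-Sry livers 5, 14, 19, 20 and 27, and at -0.85, -0.33, -0.70, -1.46 and -1.95 in XY- livers 3, 12, 22, 24 and 30. XY-Sry 27 lay within the XY- range (difference 1.45, SE 0.317, limma adjusted p = 0.337). Lpin1 is also induced by glucocorticoids, as is Fkbp5, a chaperone of the glucocorticoid receptor, which differed by 1.17 (limma adjusted p = 0.413). Fkbp5 was at 1.16 in XY-Sry 5 and -0.66 in XY-Sry 27, and between -1.30 and -0.38 in XY- livers. The 22 measured glucocorticoid-induced genes had a median of 0.16, with 13 above 0 and none called in limma. At an unadjusted p under 0.05 there were 2 of them (7.81% of all features). Circadian clock genes (20 measured) had a median of 0.02, cell cycle genes (33) of -0.06, heat shock and ER stress genes (26) of 0.05 and immediate early genes (18) of -0.04, with no member called.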

How the data were processed

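Liver RNA was labelled with Cy5 and a common liver pool with Cy3, per the labels' protocols. The labels describe the pool as liver of 17 mice, and the design text as equal portions of every sample; the pool cancels between groups. The deposited values are log10 ratios limited at a size of 2, where 15 values of these 10 arrays lie, and 2 values were missing. Neither labels nor headers state the base or the direction. Base 10 and liver over pool were read from the Y-linked genes, and another base would scale every difference alike without moving limma's p-values. Scanner, background correction and dye normalization are not given in the sources used here.

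Values were converted to log2 here. Of 23574 probes, 12662 were named through Entrez IDs and 4 through accessions in RefSeq's gene table (GRCm38.p6), 999 kept the platform's symbol (among them TTC19 and SLMO2), 48 named several genes and 9861 were not listed. Probes of 1 gene were averaged (1312 genes). XY-Sry was set against XY- with limma 3.58.1 (lmFit, eBayes; R 4.3.3), and p-values were adjusted together over the 21556 features (Benjamini-Hochberg), 0.05 being the threshold; the fit was tested on simulated data. Differences are XY-Sry minus XY- with limma's standard error (SE), and the number of arrays limits their precision. Named are the 10 genes of smallest p on either side, the leading members by p of the lists described (at most 5 a list) and the sex-linked genes; other members and genes were named after their values were seen. The comparison and the gene lists were chosen with earlier results of these data known. Alternatives left out arrays or changed probe averaging, scaling, variance model or test. Animal numbers all differ, so nothing pairs the groups, and the labels name no batch.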

Additional observations from a re-analysis of the deposited data

Results flagged for a closer look

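Of 96 genes and probes examined in both groups (192 groups of 5 livers), 29 values stood apart from the other 4 of their group by Dixon's criterion, which chance exceeds in about 1 of 20 groups. On XY- 12 there were 12: Trav9d-3 (1.93), Il2rb (1.94), Ptprcap (1.07), Gbp2b (2.30), Cxcl9 (2.88), C1qb (1.24), Clec4f (1.36), Fcer1g (1.81), Tyrobp (1.88), Cxcr2 (0.78), Ngp (3.63) and Camp (3.74), each the highest XY- value on the log2 scale. All 12 are immune genes, and such genes entered the 96 by their rank in p. The report had already set XY- 12 apart by these genes, so the 12 are a description and are not weighed against the chance rate.

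The array labelled XY- 30 gave 6: Eif2s3y (-3.90), Kdm5d (-3.16), Ssty1 (-0.86) and Gm20747 (-1.22) as the lowest, and Eif2s3x (0.51) and Tdo2 (0.61), a tryptophan-degrading enzyme of hepatocytes, as the highest of the XY- livers. The array was set apart in the report by these same sex-linked genes, so its values in Eif2s3y and the other sex-linked genes are a description and are not weighed against the chance rate.

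XY-Sry 5 gave 4: Cyp2d9 (1.19), Cyp17a1 (0.36) and Cyp2b13 (-0.01) were the highest and Cux2 (-0.56) the lowest of the XY-Sry livers. XY-Sry 14 was the highest in Sult2a1 (-1.90), Il2rb (-0.67) and Tyrobp (0.28). Dct (-1.92) was lowest in XY-Sry 27, Sult1c1 (0.49) highest in XY-Sry 19, and Bcl2l1 (0.04) and Acaa1b (0.07) highest in XY-Sry 20.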

How the results depend on the processing

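Of the 4 called features, Sult2a1 and C730007P19Rik passed in each of the other settings fitted with limma. With 1 array left out the count ran from 2 to 19: it was 2 without XY-Sry 5, 14, 19 or 27 or XY- 3 or 24, and 19 without XY- 12. Leaving out XY- 3 and 12 gave 25 and, in a setting added after seeing the data, XY- 12 and 30 gave 8. Each probe tested alone gave 9, arrays scaled to 1 median absolute deviation 9, quantile normalization 19 (18 lower, 1 higher, with Sult3a1 lost at a limma adjusted p of 0.15) and array weights 18 (13 lower, 5 higher). The exact permutation test called 0 against 1622 at an unadjusted p under 0.05, since 5 against 5 arrays allow no p below 0.00794. The cause of the other differences was not tested. None of the 85 gene differences changed sign as a called value in 21 settings: of 1783 values, 1690 kept their status, 68 newly passed and 25 no longer did. Among the 21 settings was non-overlap of the groups in place of the adjusted p. Genes newly passed there by non-overlap alone, without a change in their adjusted p. No paired analysis was possible because no animal number is shared between the groups. Signal over background was not analysed, so low probes cannot be told from unchanged ones.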
